A study of Mus musculus with 6 samples.

Results

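The 10 genes described here form the core of the NRF2 oxidative stress response in mouse fibroblasts: Nfe2l2, Nqo1, Hmox1, Gclc, Gclm, Txnrd1, Srxn1, Slc7a11, Gsta4 and Gstm1. They were selected by name, as antioxidant and glutathione genes, and each was measured by 1 probe set, so that 10 of 23346 probe sets and 10 of 20723 gene symbols are covered. The cells were mouse embryonic fibroblasts (MEFs) of the Ola129 strain on 6 Affymetrix whole-transcript arrays. The cultures shared gelatin-coated dishes, 15% serum and leukemia inhibitory factor, and RNA was taken during exponential growth. Of the 4 groups, Ink4a/Arf-/- Ezh2 fx/fx and Ink4a/Arf-/- Ezh2 -/- had 2 arrays each, and Ink4a/Arf+/+ Ezh2 fx/fx and Ink4a/Arf+/+ Ezh2 -/- had 1 array each. Ezh2 is the histone H3 lysine methyltransferase of Polycomb repressive complex 2, and the Ink4a/Arf locus encodes cell cycle inhibitors. The titles give these genotypes, whereas the series text speaks of esiRNA against Ezh2 with RNA taken 48 h later. The titles were followed, and whether the replicate arrays came from separate cultures or embryos is not stated, so p-values measure only the spread between these arrays. The sources used here do not say how Ezh2 was deleted or whether a line was a single clone.

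NRF2, the protein made from Nfe2l2, is a transcription factor that is held at a low level in unstressed cells because KEAP1 presents it to a ubiquitin ligase. Electrophiles and oxidants modify KEAP1, NRF2 accumulates, pairs with a small MAF protein and binds antioxidant response elements near genes for glutathione synthesis, thioredoxin recycling and detoxification. NRF2 is controlled largely through protein stability, which an array of RNA does not measure, so its target genes are commonly used as the readout. Cultured fibroblasts meet oxidative stress from atmospheric oxygen.

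Levels are log2 values from 2 deposited tables, 1 per Ink4a/Arf background, and a difference is always the Ezh2 -/- level minus the fx/fx level within 1 table. The array medians were 8.25 to 8.32 in the Ink4a/Arf-/- table and 7.498 and 7.515 in the Ink4a/Arf+/+ table. Ezh2 itself read 10.92 and 10.91 on the Ink4a/Arf-/- fx/fx arrays against 10.62 and 10.51 on the Ezh2 -/- arrays. That difference was -0.35 ± 0.08 (SE, n = 2 per genotype; limma adjusted p = 0.577), and in Ink4a/Arf+/+ cells Ezh2 read 10.48 on the fx/fx array and 10.12 on the Ezh2 -/- array. The Ezh2 signal was thus lower on every Ezh2 -/- array than on the fx/fx arrays of its table but not near 0, and whether the probes lie in the deleted part is not given. Fx/fx replicate 1 stood apart from the other Ink4a/Arf-/- arrays on the first principal component, which held 50.1% of the variance. The fibroblast markers averaged 11.27 to 11.38 on the Ink4a/Arf-/- arrays and 11.03 and 11.08 on the Ink4a/Arf+/+ arrays. These averages hide opposite differences in Ink4a/Arf+/+ cells, where 4 of the 12 markers were higher and 8 lower. Pdgfra differed there by -1.41 and Dcn by 1.46, and in Ink4a/Arf-/- cells by -0.17 and 0.43. The 10 macrophage markers measured averaged 7.84 to 8.14 on the Ink4a/Arf-/- arrays and 5.59 and 5.79 on the Ink4a/Arf+/+ arrays. For hepatocyte markers these averages were 6.44 to 6.61 and 5.20 and 5.30. Epithelial and keratinocyte markers averaged 7.73 to 7.87 and 6.43 and 6.47, and endothelial markers 7.09 to 7.27 and 5.99 and 6.02. Such averages are not compared between the 2 tables, which were treated as normalized separately.

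Loss of Ezh2 in Ink4a/Arf-/- cells was accompanied by no NRF2 gene passing the test. Across these genes 5 read higher and 5 lower, with a median log2 difference of -0.00068 against -0.027 over all probe sets. The numerically largest differences were in Gsta4 (0.24), Hmox1 (0.20) and Slc7a11 (-0.10), and even that of Gsta4 was only 1.18-fold. The test was limma's moderated test over all 23346 probe sets with Benjamini-Hochberg adjustment at 0.05, which called 0 probe sets (0%), as did the authors' deposited p-values after the same adjustment. With fx/fx replicate 2 left out it called 13 probe sets and with Ezh2 -/- replicate 2 left out 5, none of them an NRF2 gene. At an unadjusted limma p below 0.05, 1 NRF2 gene, Gsta4, was counted, against 1617 probe sets or 6.93% of all. The arrays of the 2 genotypes did not overlap for 3 genes that were higher in Ezh2 -/- cells, where the background was 13%. They did not overlap for 4 genes that were lower, where the background was 23.6%.

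With the Ink4a/Arf locus intact there was 1 array per genotype, and the Ezh2 difference there is described without a test of its own. None of the 10 genes differed by 2-fold, as 1.11% of all probe sets did, and none by 1.5-fold, as 4.47% did. The differences ran from -0.42 for Slc7a11 to 0.50 for Hmox1, with a median of -0.071 against 0.0007 over all probe sets. On the levels as deposited 3 genes were higher and 7 lower, where 48.1% of all probe sets were lower. After quantile normalization 8 of the 10 genes were lower and after centring the arrays 9, since the signs of Gsta4 and Nfe2l2, both near 0, turned. The share of all probe sets was not counted in those settings. The middle 50% of all probe sets lay between -0.14 and 0.14. The difference between the 2 backgrounds' Ezh2 differences was called by limma for 95 probe sets (0.407%), none of them an NRF2 gene. That count depended on the setting, with 6 probe sets with the replicate number as a block and 627 with a variance trend. Again no NRF2 gene was among them. At an unadjusted p below 0.05 that test counted 11.2% of all probe sets and none of these 10.

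**Figure D1:**
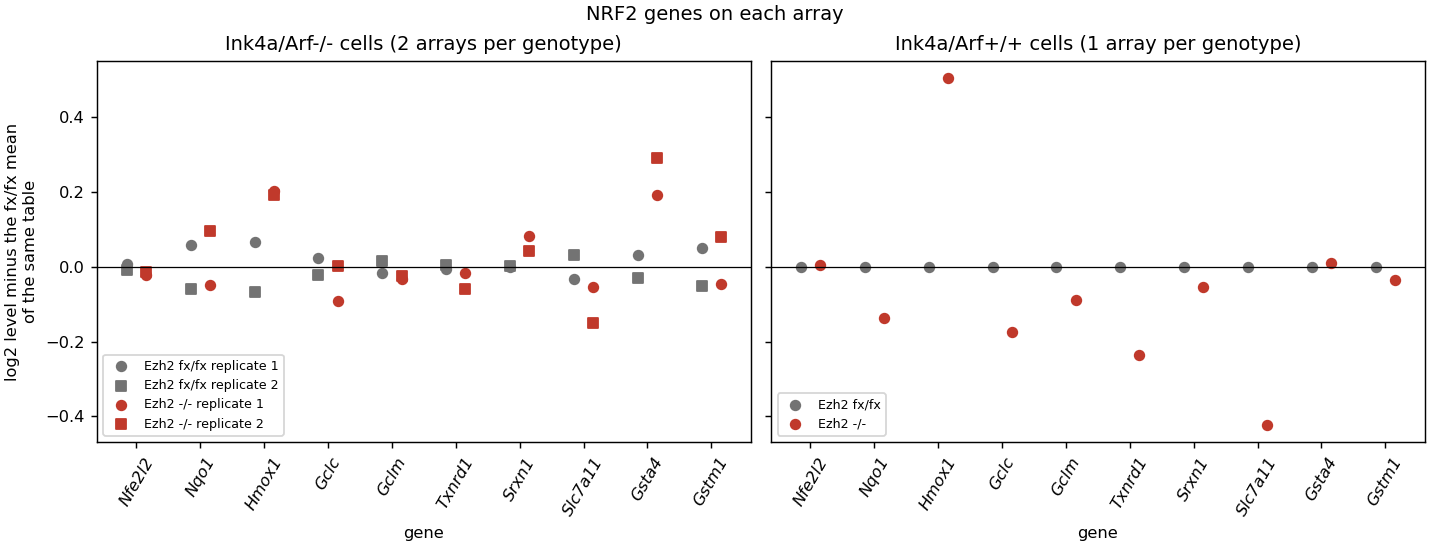
Each point is 1 array, plotted as the log2 level minus the fx/fx mean of the same table, for the 10 NRF2 genes along the horizontal axis, with Ink4a/Arf-/- cells (2 arrays per genotype) on the left and Ink4a/Arf+/+ cells (1 array per genotype, so fx/fx is at 0) on the right. On the left the Ezh2 -/- points of Hmox1, Gsta4 and Srxn1 lie above the fx/fx points. Those of Slc7a11, Nfe2l2, Gclm and Txnrd1 lie below them, with no test passed. On the right Hmox1 differs by 0.50 and Slc7a11 by -0.42.

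The transcription factor gene Nfe2l2 was nearly level within each table. It read 11.98 and 11.96 on the Ink4a/Arf-/- fx/fx arrays and 11.95 and 11.96 on the Ezh2 -/- arrays. The fx/fx arrays were the higher ones without overlap, but by little: the difference was -0.019 ± 0.071 (SE, n = 2 per genotype; limma adjusted p = 0.988), with a 95% interval from -0.19 to 0.16. In Ink4a/Arf+/+ cells it read 11.43 on both arrays, and the difference of 0.0048 turned to -0.012 when the arrays were centred. Nfe2l2 RNA says nothing of how much NRF2 protein the cells held.

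Promoter windows from RefSeq (GRCm38.p6, 250 bases before to 50 bases after the start) were at hand for 7 of the 10 genes, and Hmox1, Gclc and Gsta4 had none. These were searched on both strands for TGACNNNGC, the core of the antioxidant response element, where N is any base. It was found in 4 of the 7 genes, Nfe2l2, Gclm, Txnrd1 and Srxn1, in 1 window each. The 7 genes had 10 windows together, and 12.4% of all 32851 mouse windows held it. The stretches around the match are shown for Nfe2l2 (chr2:75704879-75704913, minus strand), Gclm (chr3:122245407-122245447, plus strand) and the 1 of 3 Txnrd1 windows that held it (chr10:82859098-82859138, plus strand). They are given because they hold the letters by which NRF2 targets are usually recognised. Capitals mark the match, which reads as its reverse complement in Gclm and Txnrd1.
Nfe2l2: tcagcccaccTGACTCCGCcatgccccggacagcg
Gclm: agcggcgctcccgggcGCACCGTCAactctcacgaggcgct
Txnrd1: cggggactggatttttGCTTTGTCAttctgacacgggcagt
The match began 240 bases before the start in Nfe2l2, 134 before it in Gclm and 92 before it in Txnrd1. A match of letters is a description of the window and does not show a bound site.

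Nqo1, the NAD(P)H quinone dehydrogenase that serves as a standard marker of NRF2 activity, read 10.34 and 10.22 on the Ink4a/Arf-/- fx/fx arrays and 10.23 and 10.38 on the Ezh2 -/- arrays. The genotypes overlapped, and the difference of 0.02 ± 0.09 (SE, n = 2 per genotype; limma adjusted p = 0.987) was smaller than the gap between replicates. Its sign turned when fx/fx replicate 2 (-0.034) or Ezh2 -/- replicate 2 (-0.048) was left out. In Ink4a/Arf+/+ cells Nqo1 read 9.17 on the fx/fx array and 9.04 on the Ezh2 -/- array, a difference of -0.14 at percentile 24.7 of all differences there.

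The glutathione synthesis genes lay close to the fx/fx levels in Ink4a/Arf-/- cells. Gclc and Gclm encode the catalytic and the modifier subunit of glutamate-cysteine ligase, the rate-limiting enzyme of glutathione synthesis. Gclc read 11.08 and 11.03 on the Ink4a/Arf-/- fx/fx arrays and 10.96 and 11.05 on the Ezh2 -/- arrays. These values overlapped, and the difference was -0.05 ± 0.08 (SE, n = 2 per genotype; limma adjusted p = 0.954), with its sign turned (0.0016) without Ezh2 -/- replicate 1. Gclm read 11.20 and 11.23 against 11.18 and 11.19, which did not overlap although the difference was only -0.03 ± 0.07 (SE, n = 2 per genotype; limma adjusted p = 0.972). With the locus intact, Gclc read 10.26 on the fx/fx array and 10.08 on the Ezh2 -/- array (-0.17), and Gclm read 10.88 and 10.80 (-0.087). Both subunits were therefore numerically lower on the Ezh2 -/- array, at percentiles 20.0 and 32.6 of all differences, with no replicate to set this against.

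Slc7a11 encodes the transport subunit of the cystine-glutamate exchanger, which brings in the cystine from which the cysteine of glutathione is made. It read 10.60 and 10.67 on the Ink4a/Arf-/- fx/fx arrays and 10.58 and 10.48 on the Ezh2 -/- arrays. The genotypes did not overlap, and the difference was -0.10 ± 0.08 (SE, n = 2 per genotype; limma adjusted p = 0.857). Leaving out each array in turn gave -0.15 to -0.054, the latter without Ezh2 -/- replicate 2. On the Ink4a/Arf+/+ arrays it read 10.04 in fx/fx and 9.62 in Ezh2 -/- cells. That difference of -0.42, or 1.34-fold lower, was the lowest of the 10 genes and lay at percentile 4.39 of all probe sets. The difference between the backgrounds was -0.32 ± 0.14 (SE, n = 2 arrays per genotype in Ink4a/Arf-/- and 1 in Ink4a/Arf+/+ cells; limma adjusted p = 0.470), with a 95% interval from -0.65 to 0.016.

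Slc7a11 is known to respond both to NRF2 and to ATF4, the transcription factor of amino acid shortage, and its promoter window is printed since it was the only 1 of the 7 genes with windows that held the ATF4-type element TGATGNAA. That motif occurred in 3.97% of all mouse windows. The window (RefSeq GRCm38.p6, chr3:50443564-50443863, minus strand) carries it 66 bases before the start and, as the reverse complement, 47 bases before it, both in capitals.
Slc7a11: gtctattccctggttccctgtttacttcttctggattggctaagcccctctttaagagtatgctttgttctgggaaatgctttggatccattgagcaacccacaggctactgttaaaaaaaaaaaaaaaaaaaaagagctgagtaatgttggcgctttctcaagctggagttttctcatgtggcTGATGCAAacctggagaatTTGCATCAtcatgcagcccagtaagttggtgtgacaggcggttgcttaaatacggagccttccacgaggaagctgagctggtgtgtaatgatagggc
No TGACNNNGC was found in these 300 bases, which says nothing of elements elsewhere. ATF4 target genes are counted among the gene lists further on.

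**Figure D2:**
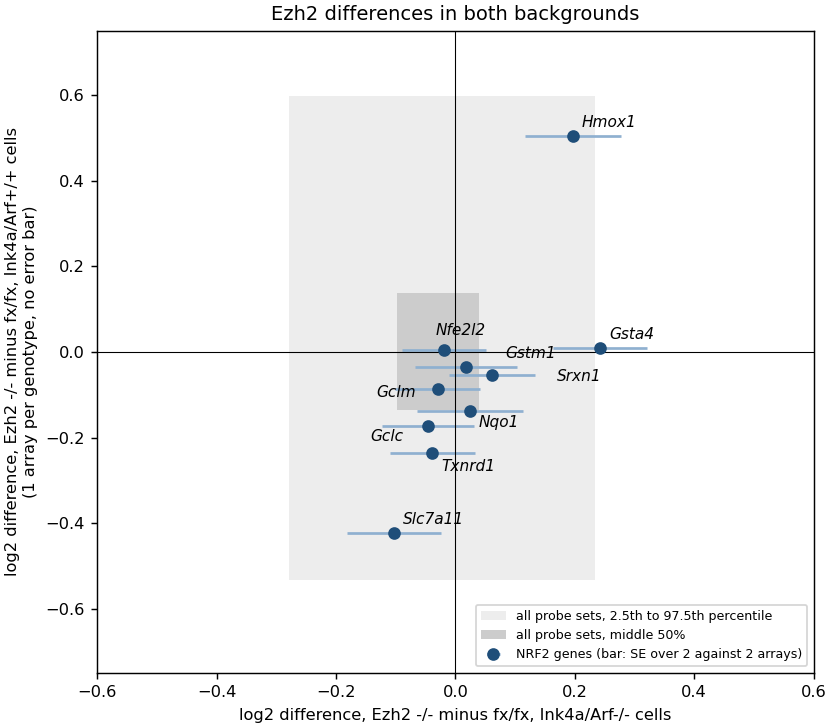
Each point is 1 NRF2 gene, with its log2 Ezh2 difference in Ink4a/Arf-/- cells on the horizontal axis (bar: SE, n = 2 arrays per genotype) and that in Ink4a/Arf+/+ cells on the vertical axis (1 array per genotype, no error bar). The dark box spans the middle 50% of all probe sets, and the light box spans a wider range, from -0.28 to 0.23 across and from -0.53 to 0.60 upwards; Hmox1 (0.20, 0.50) and Slc7a11 (-0.10, -0.42) lie farthest from 0 on the vertical axis, and Gsta4 (0.24) lies just right of the light box.

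Txnrd1 and Srxn1 serve the thioredoxin arm of the response. Txnrd1, the cytosolic thioredoxin reductase, read 11.30 and 11.31 on the Ink4a/Arf-/- fx/fx arrays and 11.29 and 11.24 on the Ezh2 -/- arrays. The difference was -0.04 ± 0.07 (SE, n = 2 per genotype; limma adjusted p = 0.962), without overlap. With the locus intact it read 10.10 in fx/fx and 9.86 in Ezh2 -/- cells, a difference of -0.24 or 1.18-fold lower, at percentile 13.5 of all probe sets.

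Srxn1, sulfiredoxin, which restores over-oxidised peroxiredoxins, read 10.576 and 10.579 on the Ink4a/Arf-/- fx/fx arrays and 10.66 and 10.62 on the Ezh2 -/- arrays. Both Ezh2 -/- arrays were the higher ones, and the difference was 0.06 ± 0.07 (SE, n = 2 per genotype; limma adjusted p = 0.916). On the Ink4a/Arf+/+ arrays it read 9.31 on the fx/fx array and 9.25 on the Ezh2 -/- array, a difference of -0.055. Its promoter window (RefSeq GRCm38.p6, chr2:152105274-152105573, plus strand) is shown because it held 2 kinds of match. The AP-1 letters TGANTCA, found in 7.81% of all mouse windows, occurred 102 and 45 bases before the start, and the reverse complement of TGACNNNGC occurred 29 bases after it. Capitals mark these 3 matches, none of which overlaps another.
Srxn1: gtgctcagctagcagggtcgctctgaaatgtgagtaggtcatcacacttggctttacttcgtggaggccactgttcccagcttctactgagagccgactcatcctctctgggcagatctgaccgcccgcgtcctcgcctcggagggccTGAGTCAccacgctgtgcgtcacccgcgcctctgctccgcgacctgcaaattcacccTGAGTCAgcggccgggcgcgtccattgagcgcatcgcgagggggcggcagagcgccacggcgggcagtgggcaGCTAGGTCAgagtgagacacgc
Among the 7 genes with windows, Srxn1 was the only gene with TGANTCA.

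Hmox1 is the haem oxygenase that splits haem into biliverdin, iron and carbon monoxide. Among the 10 genes it had the largest spread over the arrays once levels were centred within each table. It read 10.70 and 10.57 on the Ink4a/Arf-/- fx/fx arrays and 10.83 and 10.82 on the Ezh2 -/- arrays. The Ezh2 -/- arrays were both higher, by 0.20 ± 0.08 (SE, n = 2 per genotype; limma adjusted p = 0.724), which is 1.15-fold with a 95% interval from 0.998 to 1.32. It was 0.26 with fx/fx replicate 1 left out, and only 0.13 with fx/fx replicate 2 left out. In Ink4a/Arf+/+ cells Hmox1 read 10.75 on the fx/fx array and 11.25 on the Ezh2 -/- array, a difference of 0.50 or 1.42-fold. In each background the difference lay at percentile 96.4 of all differences. The difference between the backgrounds, 0.31 ± 0.14 (SE, n = 2 arrays per genotype in Ink4a/Arf-/- and 1 in Ink4a/Arf+/+ cells), did not pass the test (limma adjusted p = 0.506).

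Macrophages also express Hmox1, and their markers were set beside it. With the locus intact, 6 of the 10 macrophage markers measured were higher and 4 lower on the Ezh2 -/- array, with a median of 0.081. In Ink4a/Arf-/- cells 7 were higher and 3 lower, with a median of 0.044, where 60.9% of all probe sets were lower. Lyz2, a lysozyme of macrophages and granulocytes, had the largest difference of these markers with the locus intact. It read 5.72 on the Ink4a/Arf+/+ fx/fx array and 7.29 on the Ezh2 -/- array. On the Ink4a/Arf-/- arrays it read 11.07 and 10.59 in fx/fx and 10.86 and 11.01 in Ezh2 -/- cells, which overlapped. The other rises with the locus intact were 0.30 for Ptprc, 0.29 for Csf1r, 0.28 for Mrc1, 0.12 for Emr1 and 0.041 for Cd14. Cd68 (-0.28), Aif1 (-0.22), Tyrobp (-0.13) and Itgam (-0.023) were lower there. The part of such cells in the Hmox1 levels was not tested. In bulk RNA, fewer cells of a type and less RNA per cell cannot be told apart.

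The glutathione S-transferases Gsta4 and Gstm1 attach glutathione to electrophiles, Gsta4 with a preference for the lipid peroxidation product hydroxynonenal. Gsta4 read 8.90 and 8.84 on the Ink4a/Arf-/- fx/fx arrays and 9.06 and 9.16 on the Ezh2 -/- arrays. Both Ezh2 -/- arrays were higher, and the difference of 0.24 ± 0.08 (SE, n = 2 per genotype) was 1.18-fold with a 95% interval from 1.03 to 1.35. It was the 1 gene counted at the unadjusted threshold and did not pass after adjustment (limma adjusted p = 0.664). Leaving out each array in turn gave 0.19 to 0.29. In Ink4a/Arf+/+ cells Gsta4 read 6.66 on the fx/fx array and 6.67 on the Ezh2 -/- array, a difference of 0.0097 that became -0.025 after quantile normalization and -0.0071 after centring. The difference between the backgrounds was -0.23 ± 0.14 (SE, n = 2 arrays per genotype in Ink4a/Arf-/- and 1 in Ink4a/Arf+/+ cells; limma adjusted p = 0.613).

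Gstm1 belongs to a cluster of near-identical genes, so its probes may also take up RNA of its neighbours and its values are uncertain. It read 10.82 and 10.71 on the Ink4a/Arf-/- fx/fx arrays and 10.72 and 10.85 on the Ezh2 -/- arrays. The genotypes overlapped, and the difference of 0.02 ± 0.09 (SE, n = 2 per genotype; limma adjusted p = 0.990) turned sign without fx/fx replicate 2 (-0.034) or Ezh2 -/- replicate 2 (-0.046). With Ink4a/Arf intact it read 10.15 on the fx/fx array and 10.11 on the Ezh2 -/- array.

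The 2 tables cannot be compared by level, since they were treated as normalized separately, but the place of a gene among all probe sets of its array can be described. The Ink4a/Arf genotype and the table cannot be told apart in this description. For 7 of the 10 NRF2 genes both Ink4a/Arf+/+ arrays ranked below all 4 Ink4a/Arf-/- arrays, as did 34.8% of all probe sets. For 2 genes, Hmox1 and Gclm, they ranked above, as did 31.7% of all probe sets, and for Slc7a11 they did not separate.

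Gsta4 showed the widest separation, at percentiles 57.7 to 62.1 of the Ink4a/Arf-/- arrays and at 39.9 and 39.5 of the Ink4a/Arf+/+ fx/fx and Ezh2 -/- arrays. Srxn1 ranked at percentiles 81.6 to 83.0 against 72.4 and 72.0. Nqo1 ranked at 77.1 to 79.5 against 70.7 and 69.1. All 3 ranked lower on both Ink4a/Arf+/+ arrays.

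Txnrd1 ranked at percentiles 89.2 to 89.7 against 82.6 and 79.7, and Gclc at 86.4 to 87.5 against 84.3 and 82.3. Hmox1 went the other way, at percentiles 81.7 to 85.1 against 88.9 and 92.6. Nfe2l2 stood high on every array, at percentiles 94.6 to 94.8 against 93.7 and 93.8. The 10 macrophage markers measured also all ranked lower on the Ink4a/Arf+/+ arrays, Lyz2 at percentiles 82.1 to 87.2 against 25.7 and 47.3. Of the 12 fibroblast markers 3 ranked lower and 7 higher. Of 9 epithelial and keratinocyte markers 5 ranked lower and 1 higher. For 8 endothelial markers the counts were 4 and 1, and for 8 hepatocyte markers 4 and 2. Whether other cells in the cultures have a part in these ranks was not tested.

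**Figure D3:**
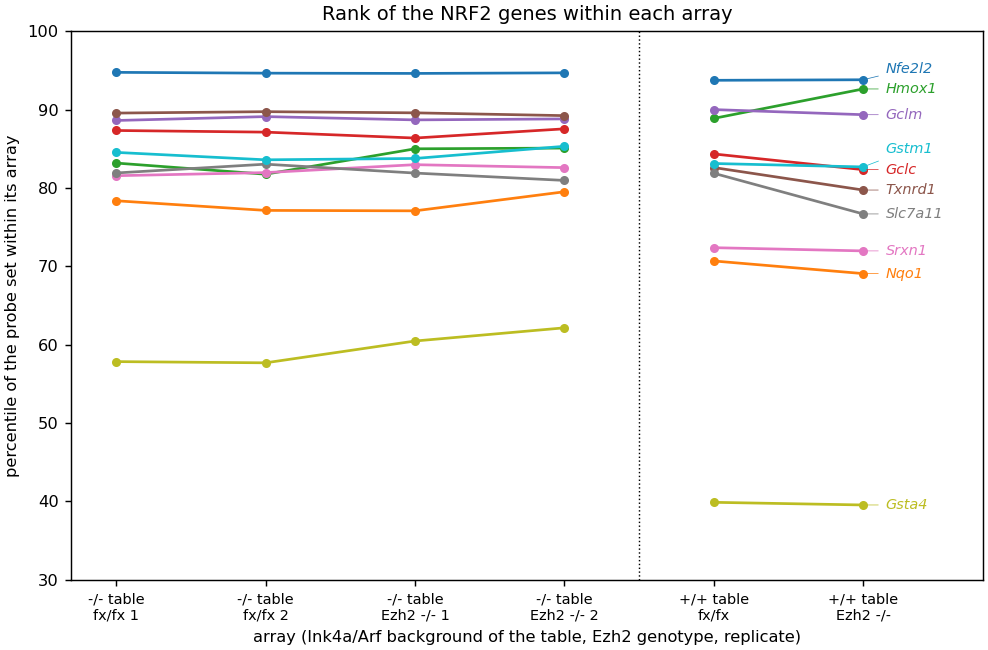
Each point is 1 gene on 1 array, with the arrays along the horizontal axis (Ink4a/Arf-/- left and Ink4a/Arf+/+ right of the dotted line) and the percentile of the gene's level among all probe sets of that array on the vertical axis, which starts at 30; lines only join the points of a gene. Of the 10 genes 7, among them Gsta4, Srxn1, Nqo1 and Txnrd1, sit lower on both Ink4a/Arf+/+ arrays than on the Ink4a/Arf-/- arrays, Hmox1 and Gclm sit higher, and no test was made between the tables.

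The genes around the pathway were taken as lists. Beside the counts of every list stand the shares of all probe sets that read lower. These were 60.9% in Ink4a/Arf-/- cells and 48.1% in Ink4a/Arf+/+ cells. None of the listed genes passed limma's test for Ezh2 loss in Ink4a/Arf-/- cells, in which no probe set was called, or for the difference between the backgrounds. Of the 16 NRF2 pathway regulators 8 read higher and 8 lower in Ink4a/Arf-/- cells (median 0.0030), and 9 higher and 7 lower in Ink4a/Arf+/+ cells (median 0.023). Keap1, which presents NRF2 for degradation, differed by 0.0074 and 0.044 in the 2 backgrounds. Maff, a small MAF partner of NRF2, read 7.69 on the Ink4a/Arf+/+ fx/fx array and 8.46 on the Ezh2 -/- array, a difference of 0.77. Maff differed by -0.029 in Ink4a/Arf-/- cells, and the limma adjusted p of the difference between the backgrounds was 0.116. Brca1, whose protein binds and stabilises NRF2, differed by -0.25 ± 0.07 (SE, n = 2 per genotype; limma adjusted p = 0.647) and by -0.42 in Ink4a/Arf+/+ cells. Nfe2l3, a relative of Nfe2l2, differed by 0.20 and -0.059.

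Among 22 genes of glutathione supply and recycling, 13 read higher and 9 lower in Ink4a/Arf-/- cells (median 0.011), and 14 and 8 in Ink4a/Arf+/+ cells (median 0.048). Gsr, the glutathione reductase, differed by -0.15 and by -0.46 in the 2 backgrounds, in the latter from 9.63 to 9.17. Ggct, which releases pyroglutamate in the glutathione cycle, differed by 0.27 ± 0.08 (SE, n = 2 per genotype; limma adjusted p = 0.650) and, in Ink4a/Arf+/+ cells, by 0.27. Gpx3, a secreted glutathione peroxidase, differed by 0.25 ± 0.07 (SE, n = 2 per genotype; limma adjusted p = 0.647) and by 0.40. Glrx, a glutaredoxin, differed by 0.091 and 0.50. In this list the named genes thus lay on both sides of 0.

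The 22 other glutathione S-transferases gave 14 higher and 8 lower in each background, with medians of 0.030 and 0.098. Gstk1, the kappa-class enzyme of mitochondria and peroxisomes, differed by 0.32 ± 0.08 (SE, n = 2 per genotype; limma adjusted p = 0.592) and, in Ink4a/Arf+/+ cells, by 0.80, from 8.93 to 9.73. Gsta1 read 6.30 and 5.09 on the Ink4a/Arf-/- fx/fx arrays and 3.73 and 3.63 on the Ezh2 -/- arrays. These levels stood at percentiles 17.0 and 7.34 of the fx/fx arrays and 1.10 and 0.874 of the Ezh2 -/- arrays, and at 1.66 and 2.25 in Ink4a/Arf+/+ cells. They are among the dimmest signals, no detection call was used, and no fold is drawn from them. Gstm4 and Gstm2, neighbours of Gstm1, differed by 0.12 and 0.022 in Ink4a/Arf-/- cells and by 0.57 and 0.51 in Ink4a/Arf+/+ cells, with the same doubt about shared probes.

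Of 18 thioredoxins, peroxiredoxins and sestrins measured of 19 listed, 2 read higher and 16 lower in Ink4a/Arf-/- cells, with a median of -0.065 where 60.9% of all probe sets were lower and the median of all was -0.027. In Ink4a/Arf+/+ cells 10 read higher and 8 lower (median 0.022). Txnrd2, the mitochondrial thioredoxin reductase, differed by -0.21 (limma adjusted p = 0.683) and -0.20. Prdx4, the peroxiredoxin of the endoplasmic reticulum, differed by -0.18 and -0.19. Sesn2, a stress-induced sestrin, had the largest difference of this list in Ink4a/Arf+/+ cells, 0.51, against -0.081 in Ink4a/Arf-/- cells. Prdx5, a further peroxiredoxin, differed by -0.056 and 0.21, and Sesn3, another sestrin, by 0.17 and 0.051.

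The 10 NADPH-producing enzymes gave 5 higher and 5 lower in Ink4a/Arf-/- cells (median 0.0086) and 3 and 7 in Ink4a/Arf+/+ cells (median -0.11). Pgd, an enzyme of the pentose phosphate pathway, differed by -0.15 and -0.067, and Tkt, transketolase, by -0.043 and -0.28. Idh1 and Idh2, the cytosolic and mitochondrial isocitrate dehydrogenases, differed by -0.064 and -0.081 in Ink4a/Arf-/- cells and by -0.30 and -0.26 in Ink4a/Arf+/+ cells. Me1, malic enzyme, differed by 0.040 and 0.25.

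For haem, iron and quinone handling 19 of 20 listed genes were measured, with 10 higher and 9 lower in Ink4a/Arf-/- cells (median 0.019) and 15 and 4 in Ink4a/Arf+/+ cells (median 0.091). Slc40a1, the iron exporter ferroportin, was the only gene of these redox and stress lists past 2-fold in Ink4a/Arf+/+ cells, from 6.65 to 7.95. Without Ink4a/Arf it differed by 0.22 ± 0.08 (SE, n = 2 per genotype; limma adjusted p = 0.706), and the adjusted p of the difference between the backgrounds was 0.062. Macrophages export iron through ferroportin as well, and the values of their markers given above belong beside this gene too. Ephx1, the microsomal epoxide hydrolase, differed by 0.47 ± 0.08 (SE, n = 2 per genotype; limma adjusted p = 0.520) and, in Ink4a/Arf+/+ cells, by 0.77. Tfrc, the transferrin receptor that takes up iron, differed by -0.086 and -0.46.

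Stress pathways beside NRF2 were counted in the same way. Superoxide and peroxide enzymes gave 6 higher and 4 lower of 10 in each background, with medians of 0.0067 and 0.0080. Nox4, an oxidase that makes hydrogen peroxide, differed by 0.18 and 0.14, and Cat, catalase, by 0.17 and 0.011. Nox1, a superoxide-making oxidase, differed by 0.075 and 0.33, and Pon2, a paraoxonase, by -0.010 and -0.23. The ATF4 and unfolded protein response list gave 9 higher and 8 lower of 17 in Ink4a/Arf-/- cells (median 0.0024) and 8 and 9 in Ink4a/Arf+/+ cells (median -0.010). Within it Nupr1, a stress-induced chromatin protein, differed by 0.16 and 0.60. Ppp1r15a, which directs the dephosphorylation of a translation factor, differed by -0.042 and 0.39, and Atf3, a stress-induced transcription factor, by 0.17 and 0.064. Of 13 heat shock genes measured of 14 listed, 3 read higher and 10 lower in Ink4a/Arf-/- cells (median -0.058), and 6 and 7 in Ink4a/Arf+/+ cells (median -0.039). Hspb8 and Hspb1, small heat shock proteins, differed by 0.081 and 0.22 in Ink4a/Arf-/- cells and by 0.60 and 0.12 in Ink4a/Arf+/+ cells. Hspd1, the mitochondrial chaperonin, differed by -0.077 and -0.30, and Hsph1, a cytosolic chaperone, by -0.11 and 0.11.

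**Figure D4:**
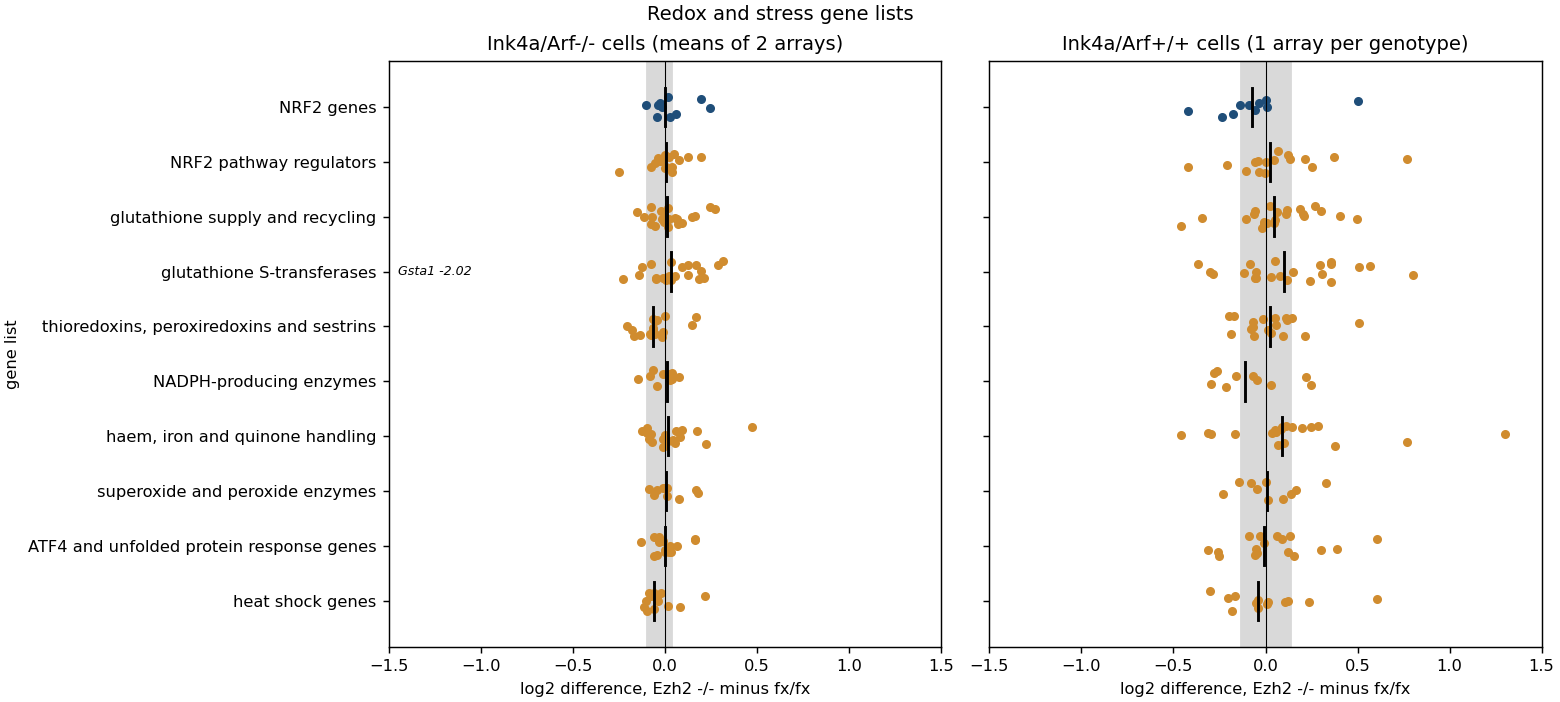
Each point is 1 gene, with its log2 difference (Ezh2 -/- minus fx/fx) on the horizontal axis for Ink4a/Arf-/- cells (left, 2 arrays per genotype) and Ink4a/Arf+/+ cells (right, 1 array per genotype), the NRF2 genes in blue and 1 row per list; black bars are medians, the grey band is the middle 50% of all probe sets, and Gsta1 (-2.02, among the dimmest probe sets) is off the left scale. The medians lie between -0.065 and 0.030 in Ink4a/Arf-/- cells and between -0.11 and 0.098 in Ink4a/Arf+/+ cells, while single genes such as Slc40a1 (1.30) lie far from their list.

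Likeness of pattern was measured as the root mean square distance between levels centred within each table, over the 6 arrays. Closest to Nfe2l2 were Slc22a21 (0.0052), Vcp (0.0056), Tpm4 (0.0071), Tnfaip1 (0.0073) and Cd7 (0.0074), all of which barely differed between arrays. Hmox1, with the largest spread of centred levels among the 10, was closest to Fmod (0.014), Dmxl2 (0.014), Loxl3 (0.016), Ctsd (0.018) and Mustn1 (0.020). Of these, Fmod, the collagen-binding proteoglycan fibromodulin, differed by 0.18 in Ink4a/Arf-/- and by 0.51 in Ink4a/Arf+/+ cells. Ctsd, the lysosomal protease cathepsin D, differed by 0.19 and 0.49. With 6 arrays in 2 tables, many genes can share such a pattern.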

How the data were processed

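The deposited values are log2 levels of each probe set on each array, which the authors made and tabled per Ink4a/Arf background beside means, fold changes on the log2 scale and p-values, per the file headers. The submitters' processing notes name limma with no version; how the arrays were normalized and their genome build were not given in the sources used here. The series' value table held the same levels (largest difference 0). The authors' deposited p-values were used only as an alternative for Ink4a/Arf-/- cells.

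Limma 3.58.1 (R 4.3.3) was fitted to the 6 arrays' log2 levels, each group having its own mean, and two-sided p-values were Benjamini-Hochberg adjusted over 23346 probe sets, called below 0.05. Only the Ink4a/Arf-/- arrays inform the spread, and testing the backgrounds against each other takes the single Ink4a/Arf+/+ arrays to be as variable as those. The scripts were tested on simulated data. The number of arrays limits the precision. All 10 genes were named throughout, plus Keap1 as NRF2's regulator. From each redox and stress list at least the 2 and at most the 4 genes with the largest absolute differences per background were named. Cell type markers were not named by that rule. The genes, lists and rules were chosen with earlier results of these data known. Alternatives were the replicate number as a block, quantile normalization, median centring, no dim probe sets, a variance trend, the series' values, only the Ink4a/Arf-/- arrays, each array left out and 1.5-fold.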

Additional observations from a re-analysis of the deposited data

Results flagged for a closer look

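Only 2 of the 10 genes, Nfe2l2 and Srxn1, met 2 conditions together. Both Ink4a/Arf-/- Ezh2 -/- arrays lay on 1 side of both fx/fx arrays, and the single Ink4a/Arf+/+ pair differed with the other sign. Arrays that did not overlap were common, at 13% of all probe sets for higher and 23.6% for lower. In Ink4a/Arf+/+ cells 48.1% of all probe sets were lower, and the share meeting both conditions was not counted. For Nfe2l2 the Ezh2 difference in Ink4a/Arf+/+ cells exceeded that in Ink4a/Arf-/- cells by 0.0235 (log2; limma adjusted p = 0.971), and its sign turned on centring. For Srxn1 it was smaller by 0.116, a value of -0.116 (limma adjusted p = 0.815). Neither difference passed the test.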

How the results depend on the processing

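No NRF2 gene was called under any setting, with the lowest adjusted p 0.317 for Ezh2 loss in Ink4a/Arf-/- cells (12 alternatives) and 0.178 for the difference between backgrounds. For Ezh2 loss, limma called 0 probe sets, against 4 without the dimmest 30%, 48 with a variance trend and 0 to 13 with each array left out (13 without fx/fx replicate 2, 5 without Ezh2 -/- replicate 2). For the difference between backgrounds it called 95, against 268 after quantile normalization, 228 after centring, 355 without the dimmest 30%, 627 with a variance trend and 44 to 245 with each array left out (245 without fx/fx replicate 2, 44 and 52 without Ezh2 -/- replicates 2 and 1). Nothing in the labels says that equal replicate numbers share a culture or day, so the numbers were not taken as pairs. The deviations of equally numbered arrays correlated at 0.0264, which with so few arrays cannot settle the pairing. With the replicate block 6 probe sets were called for the difference between backgrounds and 0 for Ezh2 loss. In Ink4a/Arf+/+ cells 259 probe sets passed 2-fold and 1043 passed 1.5-fold. Signs turned, with each array left out, for Nqo1 (-0.048 to 0.097), Gstm1 (-0.046 to 0.080) and Gclc (-0.092 to 0.0016) for Ezh2 loss, and for Gstm1 (-0.12 to 0.010) for the difference between backgrounds, where Nfe2l2 also turned on centring (-0.0097). The cause was not tested. Each gene has 1 probe set, so a mean over probe sets gave no other value.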
